A study of Mus musculus with 14 samples.

Results

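The comparison set the dorsal skin library titled E10.5 against the one titled E9.5, both from the first of the study's 2 skin sequencing projects, so it rests on 2 of 14 libraries and on 1 library per age. The embryos were wild-type C57BL/6 mice, and the labels name no difference between the groups other than embryonic day, and no allele, transgene or treatment. The labels give the tissue as dorsal skin cells, and do not say how deep the dissection went, how many embryos were taken or whether they were pooled. The second project holds dorsal skin libraries of the same ages, titled ES9.5 and ES10.5, and the rest of the series is later dorsal skin, of E12.5 and E14.5, and 6 libraries of the aorta-gonad-mesonephros region (AGM) from 3 ages, for which the youngest samples were the caudal part of the embryo.

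At these ages the back of the mouse embryo has no layered epidermis. A single sheet of surface ectoderm lies over the neural tube and the somites, in which the dermis, the back muscles and the vertebrae have their origin. The neural tube is then making its first neurons. Dorsal progenitors are patterned by Wnt and BMP signals of the roof plate, ventral ones by Sonic hedgehog from the notochord and floor plate, and each progenitor domain gives rise to its own class of neuron, marked by its own homeodomain and basic helix-loop-helix factors.

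Total counts over 53465 genes were 19929352 at E9.5 and 22716613 at E10.5 in the first project, and 8820803 and 14044081 in the second. A gene with 0 counts could thus have been present at up to 0.151 CPM at E9.5 and 0.132 CPM at E10.5, the level of 3 counts in the first-project libraries. CPM is the count scaled to a common library total over all genes and is not corrected for gene length, so a level is set against the same gene's level in other libraries only. Intervals cover counting error alone, since a single library per age gives no spread between embryos.

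The label of the tissue was set against marker genes. Keratin genes of the basal epidermis were low at both ages, with Krt5 at 3.36 CPM at E9.5 and 3.52 CPM at E10.5 and Krt14 at 0.652 and 0.484 CPM, while the desmosomal genes Dsc1 and Dsg1a had 0 counts in both. The epidermis is not yet layered at these ages, so these low levels cannot test the label. Trp63, the master factor of stratified epithelium, was at 10.6 and 9.11 CPM. Listed genes of dermal and trunk mesenchyme, some shared with other tissues, summed to 2130 CPM at E9.5 and 1790 CPM at E10.5. Those of simple epithelium summed to 215 and 62.9 CPM. The neural progenitor factors Sox2 and Pax6 were at 195 and 118 CPM in the E9.5 library and 277 and 111 CPM in the E10.5 library. Both libraries thus held neural tube RNA, and in bulk tissue fewer cells of a type and less RNA per cell cannot be told apart. Xist, read from the inactive X, was at 582 CPM at E9.5 and 256 CPM at E10.5, and Ddx3y of the Y at 32.9 and 52.6 CPM, so both libraries held RNA of both sexes, in a different mix. The part of sex in these differences was not tested.

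The second-project libraries stood apart. Sox2 was at 36.6 CPM at ES9.5 and 21.1 CPM at ES10.5, Pax6 at 0.113 and 0.0712 CPM, and the embryonic globin gene Hbb-y had 0 counts in both. The osteopontin gene Spp1 was at 30010 CPM at ES9.5 and 22229 CPM at ES10.5, against 3.26 and 1.19 CPM in the first project. Mmp3, a stromelysin gene, was at 3796 and 3013 CPM, with 0 and 1 counts in the first project. The projects were therefore not averaged, and every fold change or count is of the first project unless the second project or the AGM is named.

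A gene was taken as tested where its mean over the 2 libraries reached 1 CPM, and as past 2-fold where the CPM ratio was 2 or more in either direction and its 95% counting interval left out 1. Of 14186 genes tested, 1038 (7.32%) were higher past 2-fold at E10.5 and 474 (3.34%) were lower, together 10.7%. The median log2 CPM ratio of all genes tested was 0.01. The genes higher took up 1.32% of all counts in the E9.5 library and 3.81% in the E10.5 library, and those lower took up 0.811% and 0.266%. By the same rule, 2 AGM libraries of one labelled age differed past 2-fold in either direction at 1.55% of genes at E9.5, 1.05% at E10.5 and 1.67% at E11.5. In the second project 1.2% of 14634 genes tested were higher at ES10.5 and 4.91% were lower.

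The first-project step also had the longest tail of the 5 library pairs. Past 16-fold it held 39 higher and 45 lower genes (0.592%), the AGM pairs held 0.0271% to 0.0427%, and the second-project step held 1 gene higher and 0 lower. The first-project share was above that of each of the other pairs at 2-fold, 4-fold, 8-fold and 16-fold.

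**Figure D1:**
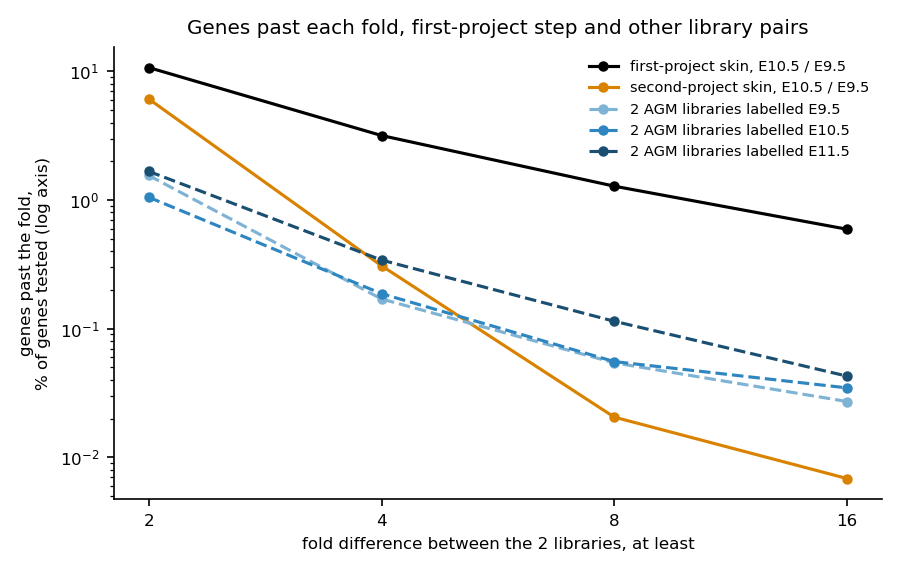
Share of tested genes (log axis, in percent) that differed by at least 2-fold, 4-fold, 8-fold or 16-fold between 2 libraries, with a counting interval leaving out 1. The first-project skin step (black) falls from 10.7% to 0.592% and lies above the second-project step (orange) and above the 3 pairs of AGM libraries that share a labelled age (blue, dashed).

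The labels also allow a test over both projects, with 2 libraries per age. In edgeR's quasi-likelihood test over all 14 libraries, 0 of 20429 genes (0%) reached a Benjamini-Hochberg adjusted p under 0.05 for skin E10.5 against E9.5. In that fit 80 genes had an unadjusted p under 0.05, and DESeq2's Wald test called 3. The coefficient of variation between libraries of a group was 81.5%, since each skin group joins 1 library of each project. With a term for project or round within tissue, edgeR's coefficient was 30.4%. That fit also called 0 genes, with 674 at an unadjusted p under 0.05. Everything that follows is therefore a difference between 2 libraries, without a test over embryos.

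Genes of young neurons were the clearest group higher at E10.5. Of 27 listed genes for the neuronal cytoskeleton and for transmission, 25 were tested and all 25 were higher past 2-fold, with a median log2 CPM ratio of 2.78, while Gad1 and Gad2, which make the transmitter GABA, stayed under the mean of 1 CPM. Of the 25, 3 reached that mean through the E10.5 library alone. The summed level of the list was 993 CPM at E9.5 and 4590 CPM at E10.5.

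Dcx, the microtubule-binding doublecortin of migrating neurons, was at 29.9 CPM at E9.5 and 349 CPM at E10.5, a ratio of 11.7 (95% counting interval 10.7 to 12.7). The neurofilament gene Nefm was at 71.8 and 553 CPM, 7.70-fold higher (7.29 to 8.14), and Tubb3, the neuronal β-tubulin, at 87.3 and 520 CPM, 5.96-fold higher (5.67 to 6.27). In the second project Dcx was at 0.340 and 0.142 CPM, Nefm at 11.6 and 12.1 CPM and Tubb3 at 64.8 and 82.7 CPM, and none of the 3 was higher past 2-fold there. Map1b, which bundles microtubules in growing axons, had the largest gain in CPM of all genes named by size of gain, from 726 to 1693 CPM.

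Genes that load transmitters into vesicles were near 0 at E9.5. Slc17a6, which loads glutamate into vesicles, had 1 count at E9.5 and 122 at E10.5, a ratio of 107 (18.9 to 4262), and Slc32a1, the carrier for GABA and glycine, had 1 and 47 counts, a ratio of 41.2 (7.05 to 1663). Among the 15 genes highest by the lower bound of their ratio were also Scrt1, a Snail-family repressor of neurons (2.76 and 49.3 CPM), Ncan, the proteoglycan neurocan (4.47 and 62.9 CPM), Sncg, γ-synuclein (1.51 and 28.0 CPM), and Rab3c, a GTPase of synaptic vesicles (35 and 681 counts). Sncg was the only one of these 4 above 2 CPM in the second project, where it did not move (21.3 and 21.1 CPM).

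Transcription factors of dorsal spinal neurons followed. Of 16 listed genes in the table, all tested, 11 were higher and 1 lower, with a median log2 CPM ratio of 2.86. Of the 16, 5 reached the mean of 1 CPM through the E10.5 library alone. Barhl1, a homeodomain factor of the commissural neurons born from Atoh1 progenitors (chr2:28907679-28916668 in GRCm38), had 5 counts (0.251 CPM) at E9.5 and 440 counts (19.4 CPM) at E10.5, a ratio of 77.2 (32.8 to 239). Of the 15 genes named as highest, which are ordered by the lower bound of the ratio, it was the first. Its paralogue Barhl2 was at 0.251 and 5.06 CPM, 20.2-fold higher (8.4 to 63.3).

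Factors of the other dorsal classes were higher too. Lhx1 and Lhx5 were 12.1-fold (9.70 to 15.3) and 11.8-fold (8.77 to 16.1) higher, at 4.27 and 51.6 CPM and at 2.41 and 28.3 CPM. Lhx1 is also listed for intermediate mesoderm and mesonephros. It was higher past 2-fold at E10.5 in both AGM rounds too, at 5.82 and 11.7 CPM and at 4.73 and 10.4 CPM. Tlx3, which selects the excitatory fate, was at 0.853 and 14.6 CPM, and Pou4f1, of sensory and early dorsal neurons, at 12.6 and 70.0 CPM. Pou4f2 had 0 counts at E9.5 and 55 at E10.5, at least 16.1-fold higher against a floor of 3 counts. Lhx9, shared by dorsal commissural neurons and the limb bud, went the other way, at 25.8 and 5.77 CPM, 4.48-fold lower (3.69 to 5.47).

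Of 17 listed factors of ventral spinal neurons, 15 were tested, 9 were higher and 1 lower, with a median log2 CPM ratio of 1.2, and 2 of the 15 reached the mean of 1 CPM through the E10.5 library alone. Those higher included Evx1 (0.552 and 5.37 CPM), En1 (3.66 and 21.5 CPM) and the motor neuron factors Isl2 (5.37 and 24.5 CPM) and Mnx1 (6.27 and 12.9 CPM). En1 is also listed for dermal and trunk mesenchyme and for the limb bud, and was at 26.3 CPM at E12.5 and 29.9 CPM at E14.5. Gata3, of an inhibitory class but also of other tissues, was lower, at 7.43 and 3.57 CPM. Neurons of both dorsal and ventral classes were thus represented at E10.5, with a larger median among the dorsal factors.

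Progenitor genes divided by their position in the neural tube. Of 16 listed dorsal progenitor genes, all tested, 8 were higher and 0 lower, with a median log2 CPM ratio of 1.03, and 2 reached the mean of 1 CPM through the E10.5 library alone. Of 13 ventral progenitor and floor plate genes, all tested, 0 were higher and 3 lower, with a median of -0.09.

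Atoh1, the proneural factor of the most dorsal neuronal domain, was at 0.652 and 17.8 CPM, 27.3-fold higher (15.8 to 51.7). Gsx1, of the dorsal interneuron domains, had 4 counts at E9.5 and 270 at E10.5, a ratio of 59.2 (22.9 to 219). Olig3, which spans the dorsal domains that depend on the roof plate, was at 26.7 and 93.6 CPM, 3.51-fold higher (3.19 to 3.86). Genes of the roof plate itself moved less, with Lmx1a at 9.38 and 9.77 CPM, Gdf7 at 2.91 and 4.71 CPM and Wnt1 at 13.1 and 24.7 CPM, none past 2-fold.

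On the ventral side Olig2, of motor neuron progenitors, was at 51.7 and 20.7 CPM, 2.5-fold lower (2.24 to 2.79), Nkx6-2 at 8.18 and 3.17 CPM and Nkx2-9 at 8.83 and 1.45 CPM. Shh itself was at 25.7 and 16.9 CPM, short of 2-fold. Pax6 and Irx3, of the intermediate neural tube, were level, at 118 and 111 CPM and at 118 and 112 CPM. Of the 12 SoxB, Notch and general progenitor genes, all tested, 3 were higher and 1 lower. Sox1 was at 91.8 and 81.9 CPM and Sox2 at 195 and 277 CPM, while Fabp7, the lipid-binding protein of radial glia, was at 18.6 and 116 CPM. The other genes higher were Nes, of the progenitor cytoskeleton (487 and 1001 CPM), and Dll3 (24.3 and 85.9 CPM), and the 1 lower was Hes3 (7.07 and 3.17 CPM). The share higher was 25%, against 7.32% of all genes tested. Neuronal genes were thus many-fold higher. Among general progenitor genes Sox1, Sox2 and Sox3 stayed within 1.42-fold, while Nes, Fabp7 and Dll3 passed 2-fold.

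**Figure D2:**
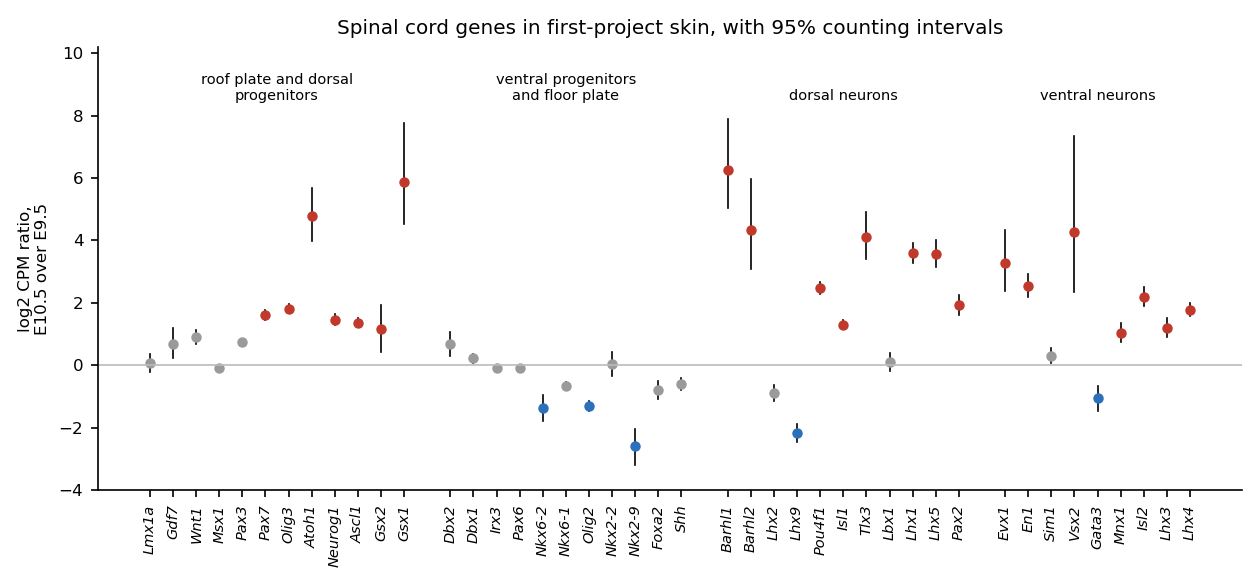
Log2 CPM ratio, E10.5 over E9.5, in first-project skin for tested genes of the spinal cord, grouped as progenitors and neurons and as dorsal and ventral; bars are 95% counting intervals, red points are higher past 2-fold, blue points lower and grey points neither. The dorsal neuron factors reach 6.27 (Barhl1), and the lowest ventral progenitor gene lies at -2.60 (Nkx2-9).

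Wiring and sensory genes were higher in part. Of 16 axon guidance genes, all tested, 6 were higher and 0 lower. Robo3, the receptor that lets commissural axons cross the floor plate, was at 1.76 and 78.4 CPM, 44.6-fold higher (32.0 to 64.3), and Cntn2, an adhesion protein of the same axons, at 29.6 and 351 CPM, 11.9-fold higher (10.9 to 12.9). Their attractant receptor Dcc was at 18.4 and 89.8 CPM, while the ligands Ntn1 (247 and 267 CPM) and Slit1 (77.2 and 88.4 CPM) were level. Receptors and adhesion proteins of axons made up 5 of the 6 genes, with the ligand Slit2 (91.3 and 226 CPM) the sixth.

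Of 15 listed genes of sensory neurons and placodes, 14 were tested, 10 were higher and 0 lower, with a median log2 CPM ratio of 1.37. Neurod1, a neuronal differentiation factor, was at 9.13 and 43.3 CPM, 4.74-fold higher (4.05 to 5.59), and Prph, peripherin, at 0.903 and 7.88 CPM. The homeobox gene Hmx1, expressed in sensory ganglia, was at 0.702 and 20.5 CPM, 29.1-fold higher (17.2 to 53.7). Neural crest and glial genes had a smaller median log2 CPM ratio, of 0.29. Of 14 tested genes 3 were higher (21.4%, against 7.32% of all genes tested) and 0 lower. Sox10, the factor of migrating crest, was at 45.2 and 52.4 CPM.

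A microRNA host gene was among the 15 highest. Mir9-3hg (chr7:79500026-79534403) had 10 counts at E9.5 and 403 at E10.5, a ratio of 35.4 (19 to 74.3), and 0 counts in both second-project libraries. The counts are of the polyadenylated host transcript, and the mature microRNA was not measured. It carries miR-9, a microRNA of the developing nervous system, whose arms at chr7:79505279-79505301 and chr7:79505318-79505339 are shown to identify the product, in the RefSeq sequence of GRCm38.p6, plus strand, with the seed (bases 2 to 8) in capitals:
mmu-miR-9-5p: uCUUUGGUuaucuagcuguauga
mmu-miR-9-3p: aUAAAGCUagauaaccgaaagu
Other host genes, looked at after the values were seen, gave 6.47 and 26.9 CPM for Mir124a-1hg and 58.0 and 115 CPM for Mir124-2hg, hosts of the neuronal miR-124, and 86.8 and 42.9 CPM for Mir17hg, host of the miR-17 cluster of proliferating cells. Mir124a-1hg was 4.15-fold higher (3.43 to 5.06) and Mir17hg 2.02-fold lower (1.87 to 2.19).

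Promoters were searched on both strands for an E-box, the site of basic helix-loop-helix factors such as the proneural proteins, in the 250 bases before the first start site that RefSeq lists. The letters CAGCTG were in 16.9% of 751 promoters of genes higher at E10.5, in 12% of 266 promoters of genes lower, in 11.3% of 9548 promoters of tested genes in neither group and in 12.8% of all 27025 promoters. These shares describe letters in a window, and the motif was picked after the values were seen.

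Among the 15 highest genes named, 14 had a promoter in the table and 3 of these held CAGCTG, namely Barhl1, Rab3c and Ncan. Of the 2 with the highest lower bound, Rab3c has a window inside the annotated span of the gene, chr13:110054187-110280996. The promoters of these 2 are shown 5′ to 3′, with the E-box in capitals. They lie on the minus strand of GRCm38.p6, at chr2:28916669-28916918 for Barhl1 and at chr13:110280207-110280456 for Rab3c, and each holds the E-box 1 time:
Barhl1: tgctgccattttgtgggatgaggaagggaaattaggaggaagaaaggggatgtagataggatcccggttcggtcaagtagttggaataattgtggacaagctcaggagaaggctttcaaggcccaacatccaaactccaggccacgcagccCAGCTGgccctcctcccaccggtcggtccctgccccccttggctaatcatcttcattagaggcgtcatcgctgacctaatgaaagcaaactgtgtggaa
Rab3c: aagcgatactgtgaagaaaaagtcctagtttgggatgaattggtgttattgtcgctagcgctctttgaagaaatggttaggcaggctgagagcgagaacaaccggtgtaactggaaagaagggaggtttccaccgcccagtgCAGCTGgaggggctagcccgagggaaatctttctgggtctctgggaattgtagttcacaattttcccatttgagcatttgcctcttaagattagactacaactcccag

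Hox genes moved to different extents by paralogue group. These homeodomain factors give cells their address along the trunk, with higher paralogue numbers further back. Of the 8 genes of groups 1 to 3 and the 7 of groups 4 and 5, all tested, none passed 2-fold, with median log2 CPM ratios of 0.27 and 0.64. Of the 8 genes of groups 6 to 8, which mark the thoracic trunk, 5 were higher and 0 lower, with a median of 1.15. Hoxc6 was at 26.9 and 67.3 CPM, 2.5-fold higher (2.26 to 2.76), and Hoxb8 at 102 and 224 CPM, 2.19-fold higher (2.08 to 2.31).

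Groups 9 and 10 split by cluster, with 2 of 7 genes higher and 2 lower. Of the 7, 1 reached the mean of 1 CPM through the E10.5 library alone (Hoxc10) and 1 through the E9.5 library alone (Hoxd10). Hoxc9 was at 3.26 and 27.2 CPM, 8.35-fold higher (6.46 to 11), and Hoxc10 had 4 and 67 counts, a ratio of 14.7 (5.48 to 55.5). Hoxd9 was at 16.9 and 5.06 CPM, 3.33-fold lower (2.69 to 4.15), and Hoxd10 had 102 counts at E9.5 and 2 at E10.5, 58.1-fold lower (15.7 to 487). Hoxa11, used in the limb bud, had 48 and 1 counts and was the 1 gene tested of the 9 in groups 11 to 13. It too reached the mean through the E9.5 library alone. The genes lower were thus Hoxa and Hoxd members of groups 9 to 11 and those higher Hoxc members. In the second project Hoxc9 was at 2.04 and 2.56 CPM and Hoxd10 at 4.99 and 7.19 CPM.

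**Figure D3:**
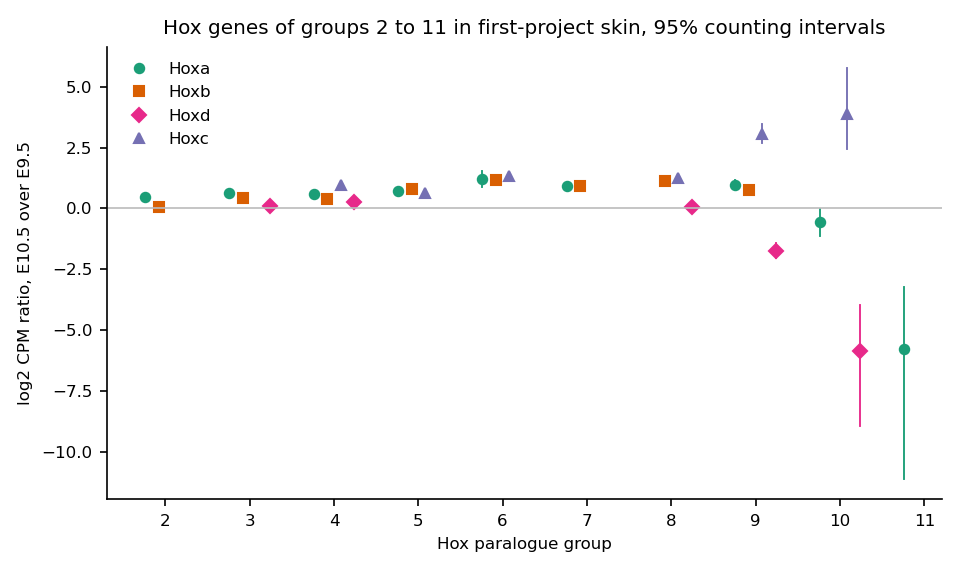
Log2 CPM ratio, E10.5 over E9.5, of each tested Hox gene of groups 2 to 11 in first-project skin, by paralogue group on the horizontal axis and by cluster in colour and symbol; bars are 95% counting intervals. Groups 2 to 5 lie between 0.07 (Hoxb2) and 0.95 (Hoxc4), and groups 9 to 11 spread from -5.86 (Hoxd10) to 3.88 (Hoxc10).

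Most skeletal muscle genes tested were higher. Of 17 listed genes, 15 were tested, 10 were higher and 0 lower, with a median log2 CPM ratio of 1.49. Of the 15, 3 reached the mean of 1 CPM through the E10.5 library alone. The determination factor Myf5 was at 9.18 and 12 CPM, short of 2-fold, while Myod1 had 11 and 78 counts (6.22-fold, 3.29 to 13) and Myog, of differentiating myocytes, was at 13.9 and 29.2 CPM. Myh3, the embryonic myosin heavy chain, was at 28.0 and 125 CPM, 4.46-fold higher (4.07 to 4.89). Of these 4 genes Myf5 had the smallest ratio, and the contractile genes Des, Ttn, Myl4 and Actc1 did not pass 2-fold either.

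Macrophage genes were low at E9.5 and higher at E10.5. Of 18 listed genes 10 were tested, of which 7 reached the mean of 1 CPM through the E10.5 library alone, and 9 were higher and 0 lower. Csf1r, the receptor for macrophage growth factor, had 18 counts (0.903 CPM) and 163 counts (7.18 CPM), a ratio of 7.94 (4.87 to 13.7), Cx3cr1 had 8 and 112 counts and Mrc1 28 and 119. The summed level of the list was 13.3 CPM at E9.5 and 53.9 CPM at E10.5. Several macrophage genes were higher in the second project and showed no such step, with Csf1r at 22 and 30.5 CPM and Lyz2, lysozyme, at 1112 and 1111 CPM.

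Embryonic red cell genes were higher by less than 2-fold in the main. Of 16 genes in the table, all tested, 3 were higher past 2-fold and 0 lower, with a median log2 CPM ratio of 0.81. Hbb-y was at 1070.0 and 2033 CPM, 1.90-fold higher (1.87 to 1.93), Hba-x at 886 and 1498 CPM and Hbb-bh1 at 572 and 1092 CPM, and these 3 were among the 5 largest gains in CPM. The adult globin genes Hbb-bt (2.71 and 13 CPM) and Hbb-bs (5.07 and 11.7 CPM) passed 2-fold, and they share closely similar sequence, so the division of reads between them is uncertain. The third was Hemgn, a nuclear protein of blood precursors (9.78 and 26.1 CPM). Of 10 platelet-lineage genes 4 were tested and 2 were higher.

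Genes of the heart field and of the lateral plate and coelomic mesoderm made up 6 of the 15 lowest genes named, and gut, yolk sac and liver genes 5 more. Of 18 heart genes 14 were tested, 2 were higher and 10 lower, with a median log2 CPM ratio of -2.96, and 7 of the 14 reached the mean of 1 CPM through the E9.5 library alone. Of 15 lateral plate and coelomic genes 14 were tested, 1 was higher and 10 lower, with a median of -3.26, and 6 of the 14 reached the mean through the E9.5 library alone. Over the members with a mean of 5 CPM or more the medians were -3.91 for heart and -2.58 for lateral plate genes. The lists share Gata4, Gata6, Hand1, Hand2 and Isl1.

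Tbx5, the factor of the heart and the forelimb bud, had 393 counts (19.7 CPM) at E9.5 and 1 count at E10.5, a ratio of 448 (79.9 to 17738). Gata4, of heart, coelom and foregut, was at 32.7 and 0.396 CPM, 82.6-fold lower (43.2 to 181), and Hand2 at 17.1 and 0.484 CPM, 35.2-fold lower (19.4 to 71.2). Foxf1, the target of hedgehog in gut mesoderm, was at 32.6 and 2.11 CPM and its divergent noncoding neighbour Fendrr at 7.88 and 0.132 CPM. Upk3b, a uroplakin of mesothelium, was at 12.2 and 0.396 CPM, and Tcf21, of coelomic organ mesenchyme, had 90 counts and 0, at least 34.2-fold lower against a floor of 3 counts. At E10.5 these genes of the ventral body wall and viscera were at 2.11 CPM or less.

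Of the heart genes, Nkx2-5 and Nppa were near 0 at both ages, at 0.502 CPM and 0 counts and at 1 and 0 counts. The chamber genes Myl7 (6.22 and 0.968 CPM) and Myh6 (8.08 and 1.10 CPM) were lower. The 2 heart-list genes higher were Isl1, also a factor of sensory and motor neurons (24.7 and 60.7 CPM), and Myh7, also a slow skeletal myosin (5.52 and 15.8 CPM).

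Gut endoderm and foregut genes were lower in part. Of 19 listed genes 14 were tested, 1 was higher and 8 lower, with a median log2 CPM ratio of -2.23, and 6 of the 14 reached the mean through the E9.5 library alone. Over the members with a mean of 5 CPM or more the median was -0.84, which is short of 2-fold. Nepn, nephrocan of the foregut and midgut lining (chr10:52388972-52404625), had 381 counts (19.1 CPM) and 0 counts, at least 145-fold lower against a floor of 3 counts. Barx1, the homeobox factor of stomach mesenchyme, had 268 counts and 1 count, a ratio of 305 (54.4 to 12110.3), and Foxa1, a pioneer factor of endoderm, was at 13.3 and 2.82 CPM. The 1 gene higher was Onecut1 (6.97 and 20.6 CPM), which motor and other spinal neurons also express.

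Yolk sac and liver plasma protein genes were lower without exception among those tested. Of 17 listed genes 12 were tested, all 12 were lower, and 8 of the 12 reached the mean of 1 CPM through the E9.5 library alone; the summed level of the list was 170 CPM at E9.5 and 11.6 CPM at E10.5. Afp, α-fetoprotein, was at 73.4 and 2.33 CPM, 31.4-fold lower (23.9 to 42.2), Apob, of lipoprotein export, at 25.8 and 1.45 CPM, and Fgb, a fibrinogen chain, had 120 counts and 1.

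Among the 15 lowest genes named, 9 had a promoter in the table and 3 of these held AGATAA, namely Nepn, Hand2 and Serpinf2. In the same 250 bases this motif of GATA factors was in 11.3% of the promoters of genes lower at E10.5, in 6.13% of those of genes higher, in 5.43% of those of tested genes in neither group and in 10.3% of all promoters. As for the E-box, these shares describe letters in a window, and the motif was picked after the values were seen. The first 2 of the 3 promoters are shown 5′ to 3′, on the plus strand of GRCm38.p6, at chr10:52391358-52391607 for Nepn and chr8:57320733-57320982 for Hand2. The Nepn window lies inside the annotated span of the gene, chr10:52388972-52404625. Capitals mark the GATA motif, which in Hand2 reads on the other strand:
Nepn: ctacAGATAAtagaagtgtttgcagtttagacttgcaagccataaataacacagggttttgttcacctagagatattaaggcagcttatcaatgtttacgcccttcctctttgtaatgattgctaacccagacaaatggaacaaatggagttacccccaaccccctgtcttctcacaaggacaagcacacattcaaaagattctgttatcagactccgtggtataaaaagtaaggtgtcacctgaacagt
Hand2: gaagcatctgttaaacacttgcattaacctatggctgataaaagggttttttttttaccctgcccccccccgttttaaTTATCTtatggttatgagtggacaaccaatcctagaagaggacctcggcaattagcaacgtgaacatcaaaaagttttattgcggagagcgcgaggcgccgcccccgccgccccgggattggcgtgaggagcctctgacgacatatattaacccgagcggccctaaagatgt

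Among tested genes of the head, the limb bud and the tail more were lower than higher. Of 18 head and pharyngeal arch genes 10 were tested, 0 were higher and 7 lower, with a median log2 CPM ratio of -1.63, and 4 of the 10 reached the mean of 1 CPM through the E9.5 library alone. Those lower included Tbx1, of the pharyngeal arches (13.2 and 5.15 CPM), and Dlx5, of the distal arches (52 counts and 1). Of 16 limb bud genes 13 were tested, 1 was higher (En1), 5 were lower and 7 neither, with a median of -0.67, and 3 of the 13 reached the mean through the E9.5 library alone. Fgf10, which starts limb outgrowth, was at 15 and 3.3 CPM, while Tbx2, Tbx3 and Lmx1b did not pass 2-fold.

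Of 18 tailbud and presomitic genes 10 were tested, 1 was higher and 5 lower, with a median log2 CPM ratio of -1.27 that turned to 0.46 over the members with a mean of 5 CPM or more. T, brachyury, was at 3.96 and 1.28 CPM, Cdx2 had 61 and 6 counts and Fgf8 was at 5.97 and 1.36 CPM. The 1 gene higher was Dll3 (24.3 and 85.9 CPM), a Notch ligand that newborn neurons also express. At E9.5 these 3 genes of trunk extension were already at 5.97 CPM or less.

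Most simple epithelial genes were lower. Of 10 listed genes, all tested, 0 were higher and 8 lower, with a median log2 CPM ratio of -1.66 and a summed level of 215 CPM at E9.5 and 62.9 CPM at E10.5. Krt8 and Krt18, the keratin pair of simple epithelia, were at 29.7 and 5.15 CPM (5.77-fold lower, 4.72 to 7.09) and at 49.3 and 9.02 CPM (5.47-fold lower, 4.70 to 6.38). Epcam, an epithelial adhesion protein, was at 27.3 and 7.13 CPM, and Cdh1, E-cadherin, at 30.5 and 10.8 CPM. Surface ectoderm, gut and coelomic linings all express such genes, and their shares in the difference cannot be told apart.

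Surface ectoderm and early epidermal genes divided. Of 20 listed genes 16 were tested, 2 were higher and 5 lower. Tfap2c (11.1 and 2.51 CPM) and Grhl2 (7.88 and 3.17 CPM), early factors of the ectoderm, were lower, while Trp63 and Krt5 lay within 1.17-fold, and Krt5's interval of 0.748 to 1.47 included 1. The 2 genes higher were the ligands Wnt7b (5.47 and 69.4 CPM, 12.7-fold, 10.4 to 15.5) and Wnt3 (3.11 and 15 CPM), which the neural tube also expresses. Of 14 periderm and suprabasal genes 2 were tested, Krt10 and Sfn, and neither passed 2-fold.

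**Figure D4:**
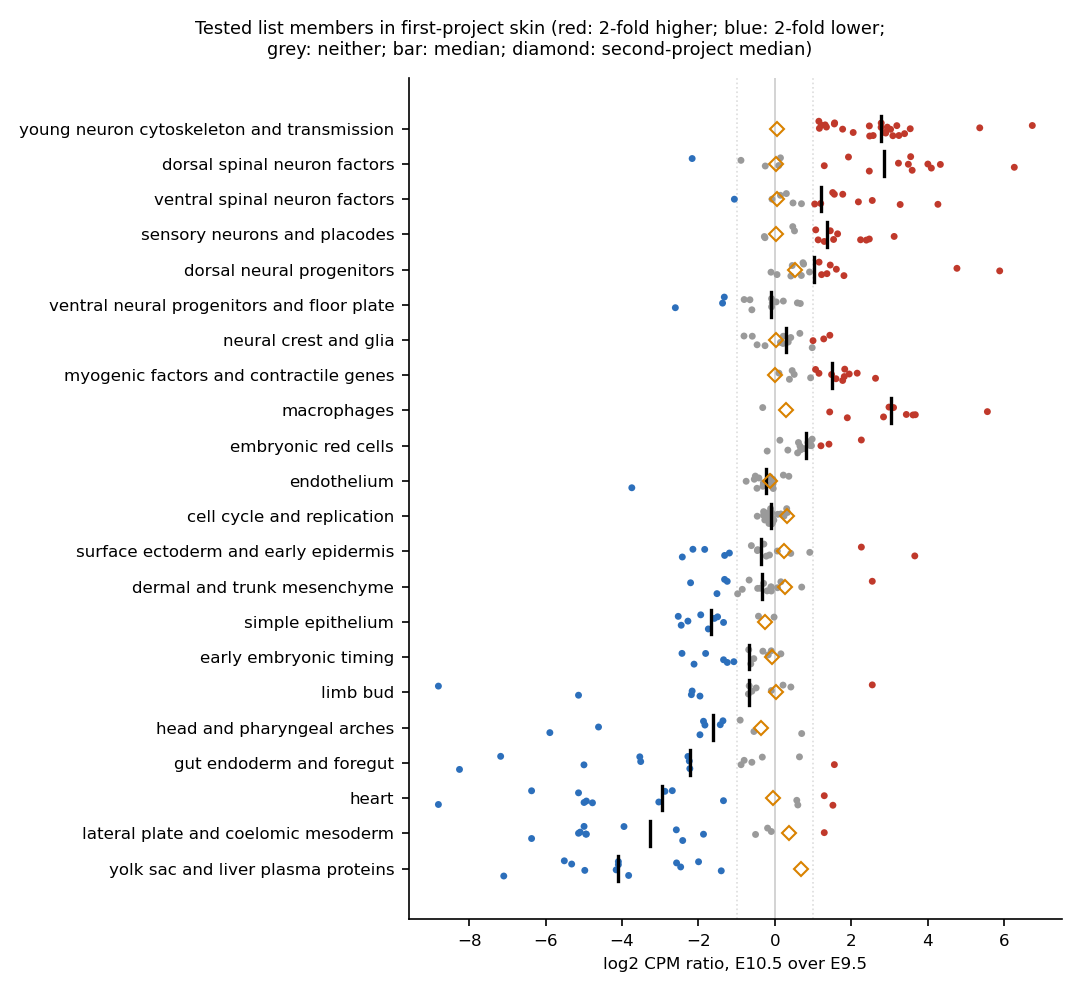
Log2 CPM ratio, E10.5 over E9.5, of the tested members of 22 gene lists in first-project skin (points), with the list median (bar) and, for lists with 3 or more members tested there, the second-project median (open diamond). First-project medians run from -4.10 for yolk sac and liver genes to 3.05 for macrophage genes.

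Some genes of embryonic timing were lower. Of 16 listed genes 13 were tested, 0 were higher, 6 were lower and 7 neither, with a median log2 CPM ratio of -0.68. Lin28a, the RNA-binding protein that blocks let-7 maturation, was at 366 and 84.6 CPM, 4.33-fold lower (4.12 to 4.55), while its paralogue Lin28b was at 288 and 137 CPM, 2.10-fold lower (2.01 to 2.20). Nr6a1, the nuclear receptor of early trunk development, was at 217 and 62.0 CPM and the stem cell factor Sall4 at 161 and 67.8 CPM. Prtg, protogenin of the early neural tube and mesoderm, had the third largest loss in CPM, from 914.5 to 164.3 CPM, 5.57-fold lower (5.37 to 5.77). The mRNA-binding proteins Igf2bp1 (926 and 746 CPM) and Igf2bp3 (273 and 256 CPM) did not pass 2-fold.

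The other large losses in CPM were small in ratio. Ncl, nucleolin, was at 2983 and 1920 CPM, Hsp90ab1, a chaperone, at 4861 and 3971 CPM, Peg10, an imprinted gene of retroviral origin, at 1541 and 899 CPM, and the imprinted noncoding H19 at 2196 and 1595 CPM. Each ratio was under 2-fold.

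Most mesenchyme and somite genes did not pass 2-fold. Of 18 tested dermal and trunk mesenchyme genes 1 was higher (En1) and 4 (22.2%) lower, against 3.34% of all genes tested, with a median log2 CPM ratio of -0.34. Twist1 was at 158 and 122 CPM, Prrx1 at 106 and 99.9 CPM and Col1a1, of collagen I, at 231 and 118 CPM, and those lower past 2-fold were Prrx2, Postn, Tbx18 and Tbx15. Dpt, a marker of later dermal fibroblasts, was at 0.652 and 0.176 CPM. Of 16 dermomyotome and sclerotome genes 1 was higher, Pax7 (22.4 and 68.5 CPM), which the dorsal neural tube also expresses, and 3 (18.8%) were lower, while Meox1 (181 and 122 CPM), Pax1 (67.9 and 49.9 CPM) and Uncx (27.7 and 38.4 CPM) were not past 2-fold.

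Vessels, cartilage and the cell cycle also differed little. Of 16 endothelial genes, all tested, 0 were higher and 1 lower, Etv2, the early angioblast factor (2.36 and 0.176 CPM), with Pecam1 at 36.9 and 43.1 CPM and Cdh5 at 95.3 and 86.7 CPM. None of 8 tested cartilage genes and none of 20 cell cycle genes passed 2-fold, with Col2a1 at 326 and 386 CPM and Mki67 at 870 and 855 CPM. The median log2 CPM ratios of these lists were -0.22, 0.23 and -0.10. Of 15 tested genes of hypoxia and glycolysis 0 were higher and 2 lower, with a median of -0.35.

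Signalling lists had medians short of 2-fold. Each held a larger share of lower genes than the 3.34% of all genes tested, but from only 1 to 3 genes. The Wnt, BMP and retinoic acid lists also held a larger share of higher genes than the 7.32% of all genes tested. The FGF and hedgehog lists did not. Whether these shares differ from those of all genes was not tested. Of 26 tested Wnt ligands and antagonists 3 were higher and 2 lower, of 17 BMP and GDF genes 2 and 3, of 16 FGF genes 1 and 3, of 13 retinoic acid genes 1 and 2 and of 12 hedgehog genes 0 and 1. Gli1, a direct hedgehog target, was at 88.2 and 32.0 CPM, 2.76-fold lower (2.53 to 3.01), and Ptch1, the receptor and target, at 308 and 194 CPM. Bmp2 was at 7.43 and 1.36 CPM, Fst, the activin antagonist follistatin, at 36.2 and 9.42 CPM, and Id4, a target of BMP also used in neural progenitors, at 9.48 and 46.2 CPM. Aldh1a2, which makes retinoic acid, was level at 184 and 166 CPM.

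The later first-project libraries, 1 each at E12.5 and E14.5, show what became of these levels. Barhl1 went from 0.251 and 19.4 CPM to 1.29 CPM at E12.5 and 0.0895 CPM at E14.5, Atoh1 from 0.652 and 17.8 CPM to 0 counts and 0.0448 CPM, and Nefm from 71.8 and 553 CPM to 309 and 7.52 CPM. Of the 11 dorsal spinal neuron factors higher at E10.5, 10 had their highest level of the 4 ages there, as did 17 of the 25 young neuron genes. The other 8 young neuron genes were highest at E12.5, among them Slc17a6 (5.37 CPM at E10.5 and 19.4 CPM at E12.5), Mapt, the microtubule protein tau (47.2 and 114 CPM), and Ebf3, a factor of neuronal differentiation (113 and 326 CPM). Over all 1038 genes higher, the median level was 2.89 CPM at E9.5, 9.93 CPM at E10.5, 13.5 CPM at E12.5 and 5.82 CPM at E14.5. Gata4 was at 1.67 CPM at E12.5 and 0.851 CPM at E14.5, and did not return to its E9.5 level.

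Other genes low at E10.5 were high again later. Tbx5 was at 179 CPM at E12.5 and 1.25 CPM at E14.5, Hand2 at 75.5 and 2.51 CPM, Hoxd10 at 35.6 and 1.79 CPM and Afp at 58.9 and 85.0 CPM. Lin28a and Prtg were lower still at E12.5, at 0.667 and 6.25 CPM. Krt5 was at 93.7 CPM at E12.5 and 1722 CPM at E14.5, and Epcam at 19.5 and 123 CPM. The 474 genes lower at E10.5 together took up 0.727% of counts at E12.5 and 1.40% at E14.5, above their 0.811% of E9.5 at the last age.

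**Figure D5:**
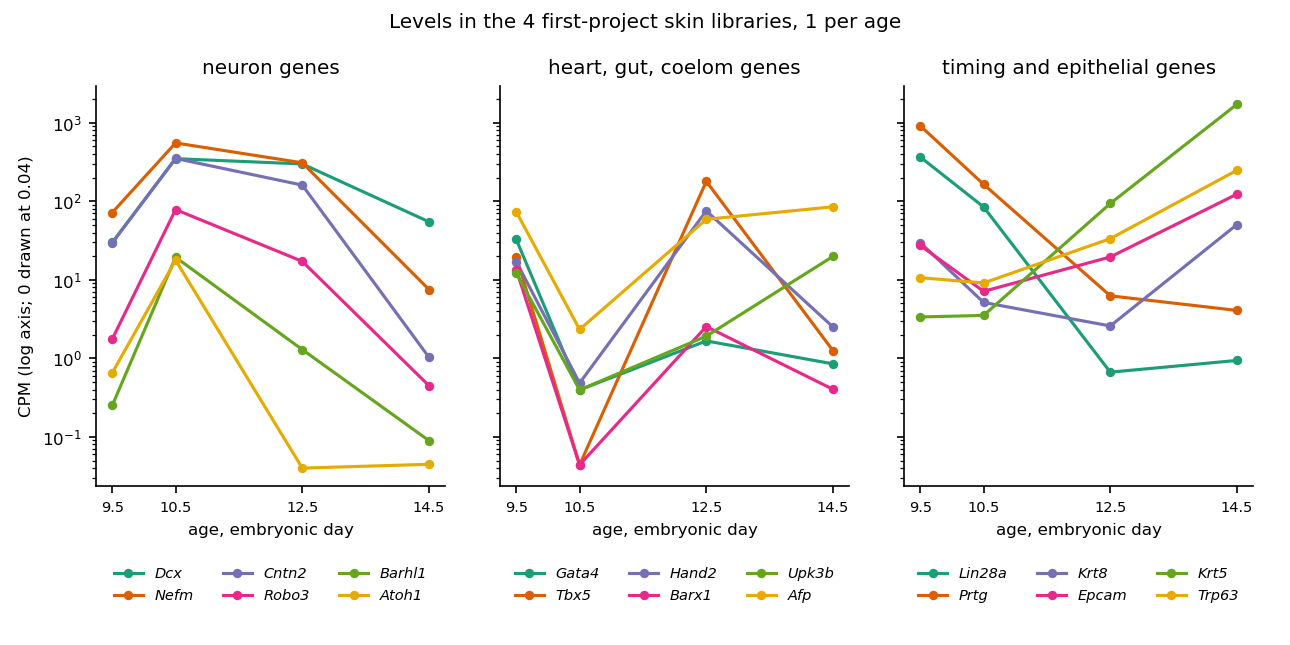
CPM on a log axis in the 4 first-project skin libraries, 1 per age, for 6 neuron genes (left), 6 genes of heart, gut and coelom (middle) and 6 genes of timing and epithelium (right); 0 counts are drawn at 0.04. The 6 neuron genes drawn, picked after their values were seen, peak at E10.5, which 8 of 25 young neuron genes do not. Gata4, Tbx5, Hand2, Barx1, Upk3b and Afp have their lowest level of E9.5 to E12.5 at E10.5, and Lin28a and Prtg drop from E9.5 to E12.5 while Krt5 reaches 1722 CPM.

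The second-project step shared little of this. Of the 1038 genes higher in the first project 562 were tested there, of which 19 (3.38%) were higher past 2-fold at ES10.5 and 13 (2.31%) lower. Of the 474 lower genes 227 were tested, of which 8 (3.52%) were lower and 6 (2.64%) higher. Over all genes tested in the second project 1.2% were higher and 4.91% lower. The share alike in both projects was thus above that of all genes for the higher genes, and below it for the lower genes. Seen from the second project, the 19 are 10.9% of its 175 genes higher and the 8 are 1.11% of its 718 genes lower.

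Many of the members were hardly present there. Of the 12 dorsal spinal neuron factors past 2-fold in the first project 10 were under 1 CPM in both second-project libraries, as were 10 of the 25 young neuron genes, 8 of the 12 yolk sac and liver genes and 8 of the 12 heart genes. These genes thus stayed under 1 CPM at both ages there. The exceptions among the dorsal factors were Lhx9, at 12 and 10.4 CPM, and Lhx1, at 0.567 and 1.92 CPM, 3.39-fold higher (1.29 to 11.3), from 5 and 27 counts. Of the 15 young neuron genes tested there, 1 was higher and 1 lower, with a median log2 CPM ratio of 0.07. The gene higher was Gad1 (8 and 79 counts), which was under the mean of 1 CPM in the first project, and the gene lower was Rbfox3, the neuronal splicing factor (15 and 9 counts).

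The other lists showed few members past 2-fold in the second project. None passed it of 4 heart genes tested there, 7 lateral plate, 3 yolk sac and liver, 7 muscle, 16 macrophage, 14 limb bud, 5 head, 6 simple epithelial, 12 axon guidance, 4 dorsal progenitor and 19 mesenchyme genes. Among all genes tested in the second project, 1.2% were higher and 4.91% lower. The lists are short against those shares, and whether they differ from all genes was not tested. Of 8 ventral spinal neuron factors 1 was lower, of 11 timing genes 1 was lower, and of 2 gut endoderm genes tested 1 was higher. Wnt ligands and antagonists were the list with the most members higher there, at 5 of 15 tested, against 1.2% of all genes.

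With 5 CPM or more in the higher library of each project, 4 genes were past 2-fold in the same direction in both, all higher at E10.5. Wnt9a, a Wnt ligand, was at 3.66 and 9.29 CPM in the first project and 3.85 and 7.83 CPM in the second, 2.54-fold (1.93 to 3.36) and 2.03-fold (1.37 to 3.08) higher. Heyl, a target of Notch signalling, was at 31.8 and 72.8 CPM and at 4.87 and 9.97 CPM, 2.29-fold (2.09 to 2.51) and 2.04-fold (1.44 to 2.95) higher. Gamt, which makes creatine, had 100 and 284 counts in the first project (2.49-fold, 1.98 to 3.16) and 44 and 152 in the second (2.17-fold, 1.54 to 3.11), and Fam84a was at 3.41 and 13.3 CPM and at 16.8 and 35.5 CPM. All 4 were close to the 2-fold limit in the second project, with ratios of 2.03 to 2.17.

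A further edgeR fit, chosen after seeing the data, left out the 4 second-project skin libraries and took the spread between libraries from the AGM pairs. At a Benjamini-Hochberg adjusted p under 0.05 it called 925 genes higher and 357 lower, including 693 of the 1038 genes higher past 2-fold (66.8%) and 239 of the 474 lower (50.4%). That fit assumes that skin libraries vary like AGM libraries, which these data cannot show, and it uses the same 2 skin libraries.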

How the data were processed

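PolyA RNA-seq counts were analysed for 14 mouse libraries. The authors deposited raw read counts per gene; the submitters' processing notes name featureCounts 1.6.0, the aligner STAR 2.5.0a, the trimmer Trimmomatic 0.36 and the package DESeq2 1.20.0, with GRCm38. No source used here gives the strand setting of the counting, so reads of overlapping or antisense genes cannot be told apart.

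Counts were divided by the library total and given as CPM. A CPM ratio has an exact 95% counting interval (Clopper-Pearson on the share of the 2 libraries' counts). Genes with a mean of 1 CPM or more were tested, and 0 counts were set to 3 counts for a bound. PCR copies are not independent molecules, so intervals cover counting error only.

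The counts were fitted in R 4.3.3 with edgeR 4.0.16 (filterByExpr, TMM, glmQLFit, glmQLFTest, Benjamini-Hochberg) over 7 groups of tissue and age. DESeq2 1.42.0, other thresholds and scalings, the replicate block and leaving out libraries were alternatives. Both procedures were tested on simulated data. Nothing in the labels says that libraries of a group came from separate embryos, so p-values measure the spread between these samples. Differences between replicates correlated across ages at r = 0.769 to 0.943 in skin and 0.337 to 0.437 in AGM over 15747 genes, and the labels tie the replicate to a sequencing project, so the numbers pair the samples. The 3 second-round AGM columns were matched to ages by sample number, an assumption.

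The 47 gene lists (632 genes, 630 in the table) and the compared libraries were chosen with earlier results of these data known. Named genes are list members, the 15 highest and 15 lowest by the interval bound nearest 1 (5 CPM or more, no predicted genes), the 5 largest CPM gains and losses, and genes past 2-fold alike in both projects. Only some of them are described. Promoter and microRNA sequences are from RefSeq on GRCm38.p6, with chromosome 18 left out.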

Additional observations from a re-analysis of the deposited data

How the results depend on the processing

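TMM scaling, and totals without globin and mitochondrially encoded genes, left the 1038 higher and 474 lower genes within 1.5 times. With a mean of 5 CPM or more the counts were 595 higher and 148 lower, with any count 1402 and 1013, and at 4-fold 316 and 134; fewer or more genes were tested by construction. Lists with a median past the fold were 9 higher and 7 lower, 7 and 5 with a mean of 5 CPM or more, and 3 and 4 at 4-fold. With a mean of 5 CPM the tailbud median was reversed to 0.46, and those of gut endoderm (-0.84, short of 2-fold), heart (-3.91), lateral plate (-2.58) and dorsal spinal neuron factors (2.2) moved by more than 0.5 on the log2 scale. edgeR called 0 genes over both projects, with median-of-ratios factors, without a filter, in skin alone, and with each skin library of these ages left out (0 to 0). The replicate block, which pairs libraries by project, also gave 0, with 674 genes at an unadjusted p under 0.05. DESeq2's Wald test called 3 genes (Ckm, Cyp2w1 and Pla2g4f, outside the naming rule and picked from their values), which had at most 0.176 CPM in the E9.5 and E10.5 skin libraries of either project. The added fit of 10 libraries, with second-project skin left out, called 1282. Genes under about 1 CPM were limited by depth.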
